A study of Mus musculus with 6 samples.

Results

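Annexins are a family of proteins that bind acidic phospholipids of membranes, most of them in the presence of calcium. The 10 annexin genes described here (Anxa1 to Anxa8, Anxa10 and Anxa11) were each read by at least 1 transcript cluster, a group of array probes summarised together, that the array annotation assigned to that gene alone. These 10 genes had 11 such clusters, out of 35556 clusters in all and 19938 genes that could be measured in this way. The family was picked from measured values, because Anxa10 was already known to be much lower in HBC than in LBC on these arrays. The HBC and LBC values of Anxa10 are therefore given as a description with no test, while the other 9 genes entered by their family name. The question addressed was whether Anxa10 differed alone within the family.

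HBC (high binding cells) and LBC (low binding cells) are populations sorted from immortalized stromal vascular fraction cells of inguinal white fat, taken from male 129SVE mice, kept for strong or weak binding of FcsFNDC4, the soluble part of FNDC4 fused to an antibody Fc part. RNA was taken at passage 20 as 3 technical replicates for HBC and 3 for LBC, with no other treatment named, and each was run on 1 Affymetrix mouse gene array. The replicates of a group share 1 sorted population of 1 immortalized line, so every p-value measures technical spread only, and says nothing of how repeated sorts would vary. Titles, descriptions and cell phenotypes gave the groups, whereas another label field of LBC replicates 2 and 3 reads HBC, and the log2 fold changes of all 10 annexins are therefore also given without these arrays. In cultures measured in bulk, fewer cells that express a gene and less RNA per cell cannot be told apart.

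The median intensity over all clusters was between 122 and 132 on the HBC arrays and between 131 and 134.6 on the LBC arrays. Genes were called where the adjusted p of limma was below 0.05 and the fold exceeded 1.5. Of 11 preadipocyte markers, 10 had their own cluster, and their summed intensity was 16257 to 18110.1 in HBC and 14133 to 16679 in LBC. These markers did not move one way. Eng was called higher in HBC and 9 were not called, and at an adjusted p under 0.05 with no fold threshold 4 were higher and 2 lower. The higher ones were Eng (log2 fold change of 0.78), Pdgfrb (0.53), Pdgfra (0.37) and Pparg (0.33), and the lower ones Cd34 (-0.45) and Cd24a (-0.39). At an adjusted p under 0.05 with no fold threshold, 6.93% of all genes were higher and 11.4% lower. The sum over 6 mature adipocyte markers was 2755 to 2914 in HBC and 2063 to 2442 in LBC, and that over 6 endothelial markers 323 to 372 in HBC and 334 to 401 in LBC. Most of the mature adipocyte sum was Fabp4, which averaged 2363 in HBC and 1774 in LBC. The summed intensity of 8 macrophage markers was 705 to 727 in HBC and 817 to 857 in LBC, that of 8 epithelial markers 1216 to 1294 in HBC and 1241 to 1252 in LBC, and that of 6 gastric epithelial markers 691 to 735 in HBC and 730.1 to 809 in LBC. None of the markers other than Eng was called, where 3.67% of all genes were. Beyond the preadipocyte list, those with an adjusted p under 0.05 from limma were Retn (0.58) and Fabp4 (0.42) of mature adipocytes, Krt19 (0.38) and Krt7 (-0.37) of epithelia and Cd14 (-0.48) of macrophages, each as a log2 fold change. Their part in the annexin values was not tested. The array gives no detection call, so the levels of 1027 olfactory receptor genes, whose 10th to 90th percentile ran from 13.5 to 85.2, served as a reference for dim signal. The group means of all 6 endothelial markers lay inside that range, so their sum could not be told from dim signal. The means of the macrophage markers Adgre1, Lyz2, Mrc1 and Ptprc lay inside it too, and those of the other macrophage markers lay above it.

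Annexins share a conserved core built of repeats that carry the calcium sites, while the part in front of the core differs and sets the partners of each protein. In fat cell progenitors and other stromal cells, Anxa1, Anxa2, Anxa5 and Anxa6 are known as abundant proteins of the membrane and cytosol. Anxa10 is known in human tissue mainly from stomach and bladder epithelium and has an atypical core in which most calcium sites are lost.

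Anxa10 was close to the dim reference in HBC and clearly above it in LBC. Its cluster (10578857) read 32.7, 24.9 and 31.9 in HBC, against 179, 189 and 243 in LBC (replicates 1, 2 and 3). The 3 HBC arrays lay below the 3 LBC arrays with a wide gap, and all 3 HBC values lay inside the range of the olfactory receptor genes while no LBC value did. The means were 29.9 ± 4.28 in HBC and 204 ± 34.2 in LBC (SD, n = 3 each), so that the HBC mean was 0.146 times the LBC mean. On the log2(intensity + 16) scale the difference was -2.25 (standard error 0.099). Since the HBC level could not be told from dim signal, the size of this fall is uncertain, and it was -2.73 with 1 added in place of 16 and -1.66 with 50 added.
The fall did not rest on a single array. Leaving out each array in turn gave log2 fold changes from -2.34 to -2.13. Since the same arrays led to the choice of Anxa10, these values describe the fall and are no independent support for it. Without both LBC arrays whose labels conflict, a setting chosen after seeing the data, it was -2.09. With the filter named in the study's methods, a mean intensity above 100 in both groups, Anxa10 was not among the genes tested, because its HBC mean was 29.9.

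**Figure D1:**
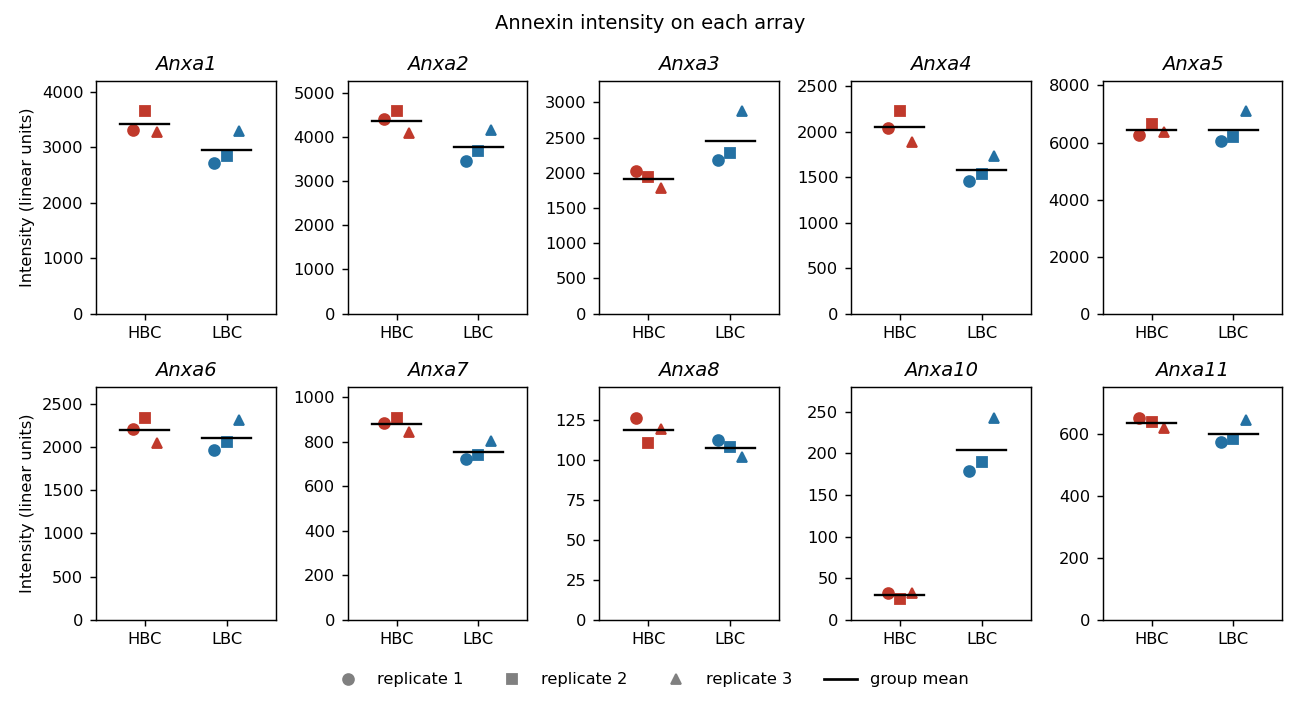
Intensity (linear units, axes from 0) of the 10 annexins on each array, with 3 HBC arrays in red on the left, 3 LBC arrays in blue on the right and lines at the group means. For Anxa10 the HBC arrays read 24.9 to 32.7 and the LBC arrays 179 to 243, while for the other 9 genes the means of the groups were much closer.

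The sequence next to the start of Anxa10 was poorer in CpG and in G and C bases than that of the other annexins matched. Promoter windows from RefSeq (GRCm38.p6), running from 250 bases before to 50 bases after a gene's start, were matched for 8 of the 10 genes, with 10 windows in all, and Anxa3 and Anxa6 were not matched. The Anxa10 window held 1 CpG dinucleotide and 34.3% G and C bases, the lowest of the 10 windows on both counts. Over 32851 windows of the mouse genome the median was 7 CpG and 52.7% G and C, and 5.43% of windows held fewer CpG than that of Anxa10. Low CpG was not particular to Anxa10. The windows of Anxa1 (3 CpG) and Anxa8 (5), the second of Anxa4 (3) and the first of Anxa7 (4) were also under that median. At the other end, the Anxa11 window held 25 CpG, that of Anxa5 held 16, and the first window of Anxa4 held 20. The second window of Anxa7 held 19 and that of Anxa2 held 13. The windows of Anxa10, Anxa1 and Anxa2 are shown because they were the windows of the 8 genes with a match to one of the motifs searched. Capitals mark these matches, and each sequence is on the minus strand for Anxa10 (chr8:62123144-62123443) and Anxa1 (chr19:20390622-20390921) and on the plus strand for Anxa2 (chr9:69453433-69453732).
Anxa10: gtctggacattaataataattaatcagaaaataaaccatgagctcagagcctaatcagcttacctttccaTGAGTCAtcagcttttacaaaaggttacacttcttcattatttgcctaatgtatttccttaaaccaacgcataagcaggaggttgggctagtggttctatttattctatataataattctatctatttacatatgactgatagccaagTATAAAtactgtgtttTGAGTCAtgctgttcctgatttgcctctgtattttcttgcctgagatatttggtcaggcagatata
Anxa1: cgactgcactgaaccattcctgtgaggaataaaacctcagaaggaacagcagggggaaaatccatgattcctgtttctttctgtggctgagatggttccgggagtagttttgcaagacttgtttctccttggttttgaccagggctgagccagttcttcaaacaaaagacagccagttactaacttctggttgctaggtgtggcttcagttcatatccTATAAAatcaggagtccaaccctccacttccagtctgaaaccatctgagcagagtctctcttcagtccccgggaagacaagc
Anxa2: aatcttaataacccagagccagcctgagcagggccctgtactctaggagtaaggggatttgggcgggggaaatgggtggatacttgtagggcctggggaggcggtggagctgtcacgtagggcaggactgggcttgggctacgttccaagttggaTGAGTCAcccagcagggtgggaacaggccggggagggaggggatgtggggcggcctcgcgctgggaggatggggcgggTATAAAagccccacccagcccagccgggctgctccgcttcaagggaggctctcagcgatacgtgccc
The motifs were the TATA box (TATAAA), the AP-1 site (TGANTCA) and a core of the interferon-stimulated response element, each searched on both strands, and no match overlapped another. They were chosen after the sequences were seen. A TATA box at position -32 from the start was found in Anxa10 and in Anxa1, and one at position -17 in Anxa2. The Anxa10 window held AP-1 sites at positions -180 and -16, and Anxa2 held one at position -95. Over all windows, 13.6% held a TATA box, 7.81% an AP-1 site and 3.44% the interferon core, which was in none of the 10 annexin windows. These matches describe the sequence and were not tested as sites of any factor. Anxa10 was far lower in HBC and Anxa2 was not called, and any tie of the AP-1 matches to these values was not tested.

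None of the other 9 annexins was called higher or lower in HBC by limma. Over all 19938 genes, 2.54% were called higher and 1.13% lower, or 3.67% in both directions, and with Anxa10 the family had 0 higher and 1 lower of 10, a count from which nothing is read since Anxa10 led to the choice of the family. At an unadjusted p under 0.05, 5 of the 9 passed, with Anxa1, Anxa2, Anxa4 and Anxa7 higher and Anxa3 lower, where 9.51% of all genes were higher and 20.4% lower by that rule. In turn, 0 of the 9 were called by the methods' t-test after Benjamini-Hochberg adjustment. By that test with the same fold threshold, 655 of all 19938 genes were called, so nothing is read from 0 of 9. The log2 fold changes of the 9 genes ran from -0.34 to 0.38 with a median of 0.13, and 8 of 9 were above 0, beside a median of -0.07 over all genes tested. That median rose with brightness, and most of the 9 are bright. It was -0.05 over genes with a mean intensity above 500 and -0.01 over those above 1500. Their 95% intervals in the limma fit reached from -0.54 to 0.56 at the widest, inside the log2 value of a 1.5-fold change (0.58). With each gene's own spread alone, the widest limits were -0.71 for Anxa3 and 0.66 for Anxa4.

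**Figure D2:**
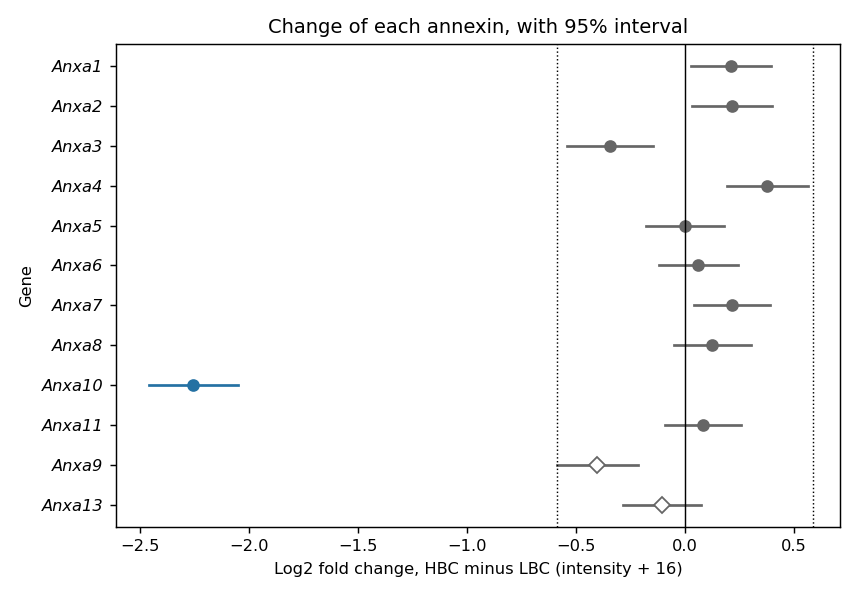
Difference in log2(intensity + 16), HBC minus LBC, for each annexin with its 95% interval from limma over 3 arrays per group, with dotted lines at a 1.5-fold change. Anxa10 (blue) lies at -2.25, the other 9 members (grey circles) between -0.34 and 0.38, and the annexins Anxa9 and Anxa13 (open diamonds) at -0.40 and -0.11. The values of Anxa10 led to the choice of the family, so its colour and interval are a description and not a test.

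Anxa4 and Anxa3 stood nearest to a call, in opposite directions. Anxa4, which binds membranes of secretory epithelia and other cells in the presence of calcium, read 2044, 2224 and 1882 in HBC, against 1460.5, 1533 and 1734 in LBC. All HBC arrays were above all LBC arrays, at a log2 fold change of 0.38 (SE 0.091, limma adjusted p = 0.0029). Anxa3, an annexin of neutrophils and of several other cell types, read 2023, 1939 and 1782 in HBC, against 2188, 2284 and 2874 in LBC. Here all HBC arrays were below all LBC arrays, at a log2 fold change of -0.34 (SE 0.096, limma adjusted p = 0.010). Without a fold threshold, these 2 genes would pass beside Anxa10, 1 higher and 2 lower of 10, where 6.93% of all genes were higher and 11.4% lower by that rule. By the methods' t-test the adjusted p was 0.12 for Anxa4 and 0.22 for Anxa3. Without LBC replicate 3, the highest LBC array for both genes, the log2 fold changes were 0.45 for Anxa4 and -0.22 for Anxa3. Without both LBC arrays whose labels conflict, they were 0.48 (limma adjusted p = 0.0096) for Anxa4 and -0.19 (limma adjusted p = 0.22) for Anxa3.

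The annexins best known from inflammation and from the cell surface differed less. Anxa1, a target of glucocorticoids that limits inflammation through formyl peptide receptors, read 3309, 3643 and 3274 in HBC, against 2713, 2837 and 3289.9 in LBC. The groups overlapped, since LBC replicate 3 was above HBC replicate 3, and the log2 fold change was 0.21 (limma adjusted p = 0.10). Anxa2, which forms a complex with S100a10 at the plasma membrane and binds plasminogen and its activator, read 4413, 4578 and 4096 in HBC, against 3449.7, 3679.7 and 4157 in LBC. Again LBC replicate 3 lay above the lowest HBC array, and the log2 fold change was 0.22 (limma adjusted p = 0.096). Without LBC replicate 3 the adjusted p of limma was 0.0083 for Anxa1 and 0.0095 for Anxa2, at a log2 fold change of 0.29 for each, so that neither was called there on its fold. Without both LBC arrays whose labels conflict, the log2 fold change was 0.33 (limma adjusted p = 0.051) for Anxa1 and 0.34 (limma adjusted p = 0.044) for Anxa2, again under the fold threshold.

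Anxa5, Anxa6, Anxa8 and Anxa11 showed overlapping groups. Anxa5, which binds phosphatidylserine and is used to stain dying cells, read 6262, 6643 and 6377 in HBC, against 6042, 6177 and 7092 in LBC, and its log2 fold change was 0.00 (95% interval from -0.18 to 0.18). Anxa6, which carries a doubled core, read 2049 to 2339 in HBC and 1962 to 2306 in LBC, with a log2 fold change of 0.06 (95% interval from -0.12 to 0.24). A further Anxa6 cluster (10385993), which the annotation links to 1 mRNA only, read 130 to 160.3 in HBC and 139 to 156 in LBC, with a log2 fold change of -0.08. The Anxa6 clusters thus had small differences of opposite sign, neither called. Anxa8 read 110.3 to 126 in HBC and 101 to 112 in LBC, with a log2 fold change of 0.13 (95% interval from -0.05 to 0.30). Anxa11, known to act with ALG-2 and with RNA granules, read 618 to 653 in HBC and 573 to 644 in LBC, with a log2 fold change of 0.08 (95% interval from -0.09 to 0.26).
Anxa7, also named synexin for its fusing of secretory granules, had groups that did not overlap, at 883, 909 and 843 in HBC, against 724, 739.9 and 803 in LBC. Its log2 fold change was 0.21 (SE 0.085, limma adjusted p = 0.080). In all, 2 of the 10 annexins had HBC above LBC with no overlap (Anxa4 and Anxa7), where 10.1% of all genes did, and 2 had HBC below LBC (Anxa3 and Anxa10), where 25.1% of all genes did. Without both LBC arrays whose labels conflict, the log2 fold changes were 0.09 for Anxa5, 0.16 for Anxa6, 0.27 for Anxa7, 0.07 for Anxa8 and 0.15 for Anxa11, none of them called. In that setting 1 LBC array is left, which is taken to vary like the HBC arrays.

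LBC replicate 3 was the highest of the LBC arrays for 9 of the 10 annexins, with Anxa8 as the exception, while this held for 50.1% of all genes. It went with brightness: among the 5628 genes with a mean intensity above 500, LBC replicate 3 was the highest LBC array for 95.9%, and so it was for all 8 annexins above 500. Without this array none of the 9 members other than Anxa10 was called, where 731 of all 19938 genes were.

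**Figure D3:**
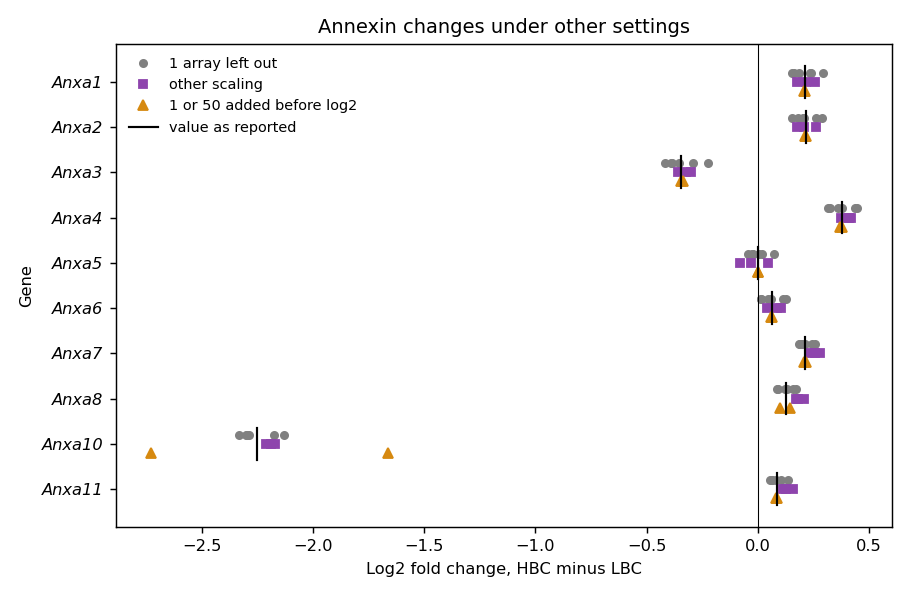
Log2 fold change (HBC minus LBC) of each annexin when 1 array is left out (grey circles), under 3 other scalings between arrays (purple squares) and with 1 or 50 added before log2 (orange triangles), with a black line at the value reported. The added value moves Anxa10, from -2.73 to -1.66, and hardly moves the others, and Anxa5 lies on either side of 0.

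Outside the 10 genes, the annexins Anxa9 and Anxa13 were also measured, and neither was called, where 3.67% of all genes were. Anxa9, which like Anxa10 has an atypical core, read 72.9, 67.3 and 77.0 in HBC, against 90.8, 97.7 and 115 in LBC. Its HBC arrays lay below its LBC arrays and inside the range of olfactory receptor genes, at a log2 fold change of -0.40 (SE 0.090, limma adjusted p = 0.0015). Anxa13, known from intestinal epithelium, averaged 39.0 ± 4.54 in HBC and 43.1 ± 2.21 in LBC (SD, n = 3 each), within the dim range on every array.

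Most genes in the lists of annexin partners and of related genes were not called either. Those called were S100a16 and S100a1, of the S100 list, and Pla2g4c, of the phospholipase list. S100 proteins are small calcium sensors that bind the front part of several annexins. Of 16 measured, 2 were called higher in HBC, none lower and 14 were not called, where 2.54% of all genes were called higher and 1.13% lower. Nothing particular to the list is read from a count this small. The list had a median log2 fold change of -0.01 beside -0.07 over all genes. S100a16 read 941, 982 and 867 in HBC, against 279, 287 and 267 in LBC, all HBC arrays above all LBC arrays, and rose by a log2 fold change of 1.69 (SE 0.086, limma adjusted p = 5.7e-16). S100a1, best known from heart muscle, read 2612, 2766 and 2475 in HBC, against 1372, 1428 and 1693 in LBC, again without overlap, and rose by 0.80 (SE 0.091, limma adjusted p = 4.8e-08). The S100 proteins with the closest known ties to annexins were not called. S100a10, the partner of Anxa2, had a log2 fold change of 0.12 (95% interval from -0.06 to 0.31). For S100a11, a partner of Anxa1, it was 0.02 (95% interval from -0.16 to 0.20), and for S100a6, a partner of Anxa11, 0.04 (95% interval from -0.15 to 0.22).

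Cytosolic phospholipases A2 release arachidonic acid, and Anxa1 was first described as a protein that lowers this activity. Of 6 measured, with a median log2 fold change of -0.04, 1 was called higher and 0 lower, beside the same 2.54% and 1.13% of all genes. Pla2g4c read 221, 259 and 194 in HBC, against 52.6, 52.4 and 44.1 in LBC, and rose by a log2 fold change of 1.87 (SE 0.096, limma adjusted p = 7.0e-16). All its LBC values lay inside the dim range, so the size of the rise is uncertain. Pla2g4a, the best known member, read 1206, 1260.1 and 1030.3 in HBC, against 1392, 1413 and 1702 in LBC, at a log2 fold change of -0.36 (limma adjusted p = 0.0065) that did not reach the fold threshold.
Annexins also act at injured membranes, together with dysferlin, calpains, caveolar proteins and the ESCRT machinery. Of 19 such genes, 0 were called by limma at the fold threshold, where 2.54% of all genes were called higher and 1.13% lower. With no fold threshold, 5 had an adjusted p under 0.05, all higher in HBC, where 6.93% of all genes were higher and 11.4% lower. The median log2 fold change was 0.11, beside -0.07 over all genes, -0.05 over genes with a mean intensity above 500 and -0.01 over those above 1500. Grn, a lysosomal growth factor precursor, was closest to a call, at 2924, 3167 and 2589 in HBC, against 1858, 1895 and 2028 in LBC, and its log2 fold change was 0.58 (limma adjusted p = 1.2e-05). It passed the fold threshold after median centring (0.62) and cyclic loess normalization (0.60), and without HBC replicate 3 (0.66) or LBC replicate 3 (0.62). The caveolar genes Cav1 and Cavin1 had log2 fold changes of 0.34 and 0.28, Dysf one of 0.26, Chmp4b one of 0.31 and Pdcd6, which encodes ALG-2, one of -0.02.
No gene of the plasminogen system (9 measured) or of the other phospholipid binders (23 measured) was called by limma, nor any of 3 formyl peptide receptor genes. Over all genes 2.54% were called higher and 1.13% lower, so nothing is read from counts of 0 in lists this small. The median log2 fold changes of these lists were 0.03, -0.10 and -0.01. The 3 receptor genes were Fpr-rs4, Fpr-rs6 and Fpr-rs7, all dim. Fpr1, Fpr2 and Fpr3 had no cluster of their own, so their levels are not known here. Past the adjusted p but short of the fold were Plaur, the urokinase receptor, at -0.32, Esyt1 and Esyt2, which tether membranes, at 0.32 and 0.30, and the dim Fpr-rs7 at -0.26.

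**Figure D4:**
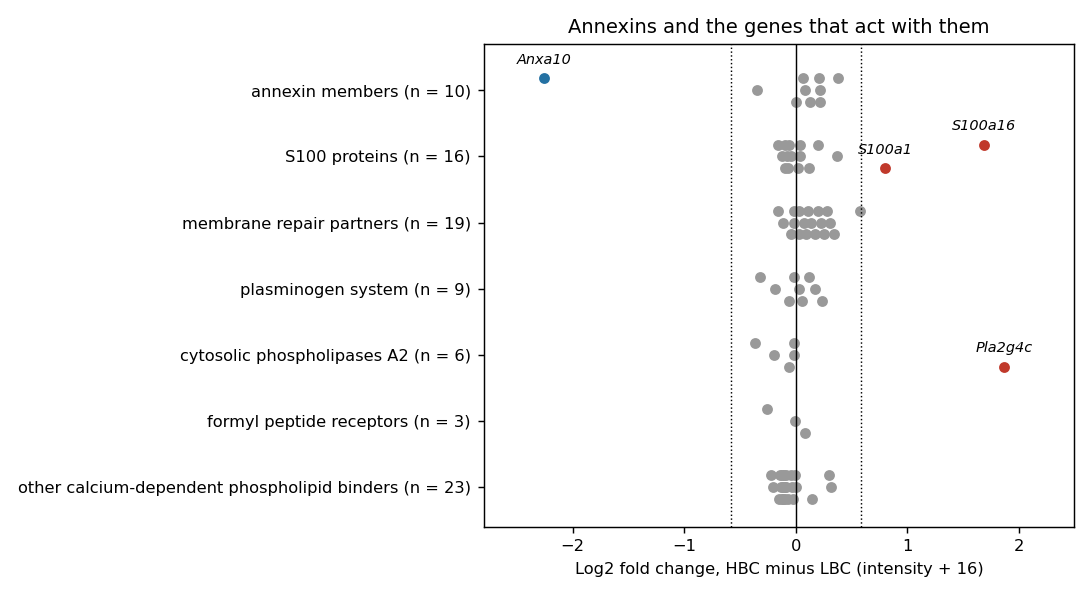
Difference in log2(intensity + 16), HBC minus LBC, for the 10 annexins and for each gene in 6 lists of their partners and of related genes, with dotted lines at a 1.5-fold change. Named points were called higher in HBC (red: S100a16 at 1.69, S100a1 at 0.80, Pla2g4c at 1.87) or lower (blue: Anxa10 at -2.25), and the grey ones were not called. The values of Anxa10 led to the choice of the family, so its colour is a description and not a test.

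The gene next to Anxa10 on chromosome 8 differed strongly in the opposite direction. Ddx60, which encodes a helicase of antiviral defence, read 546, 681 and 460.4 in HBC, against 74.7, 65.8 and 44.9 in LBC. The HBC arrays were all above the LBC arrays, with the LBC values inside the dim range, and it rose by a log2 fold change of 2.90 (SE 0.120, limma adjusted p = 4.2e-18). Palld, the next gene on that side, had a log2 fold change of -0.24, and Spock3 and Sgo2b, on the other side, had -0.29 and -0.31, none of them called and the Spock3 and Sgo2b levels dim in both groups. Among the flanking genes of the other 9 annexins, taken as the nearest 2 measured genes on each side, 1 was called. It was Rora, a nuclear receptor gene on chromosome 9 near Anxa2. Over all genes 3.67% were called, and nothing particular to these neighbours is read from 1 call. Rora read 413, 428 and 439 in HBC, against 93.3, 104 and 104 in LBC, and rose by a log2 fold change of 1.93 (limma adjusted p = 1.7e-17), while Anxa2 was not called.

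**Figure D5:**
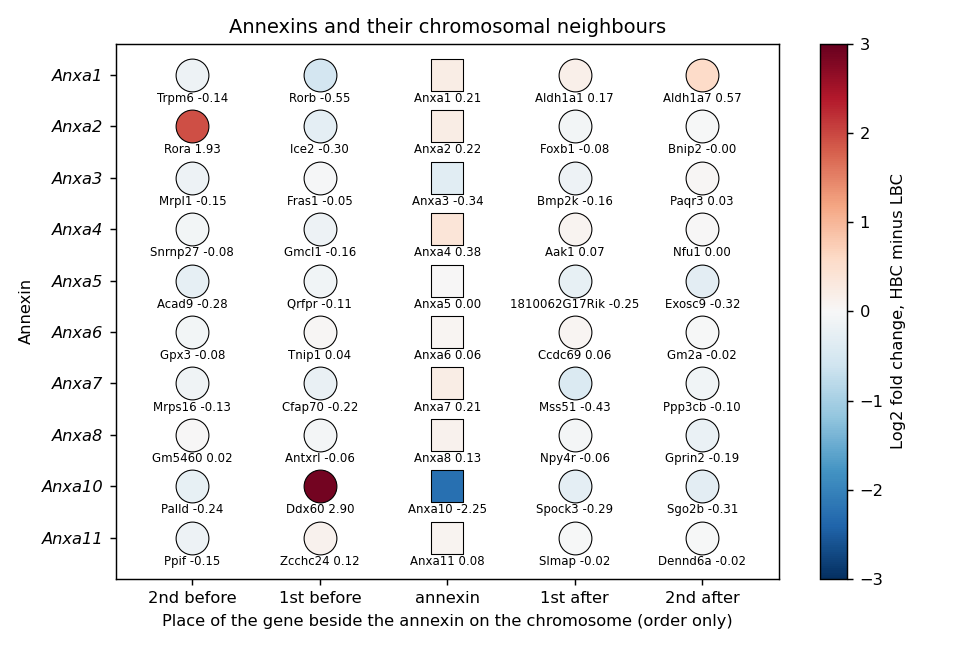
Log2 fold change (HBC minus LBC) of the 10 annexins (squares) and of the nearest 2 measured protein-coding genes on each side (circles), by gene order in RefSeq, with red for higher and blue for lower in HBC. Anxa10 (-2.25) stands beside Ddx60 (2.90), and Rora (1.93) near Anxa2 (0.22) is the other strongly coloured neighbour.

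The genes whose pattern over the 6 arrays was most like that of Anxa10, by the root mean square difference of log2 values centred on each gene's mean, were Gria1 (0.25), Npnt (0.28), Itga3 (0.28), Ak5 (0.33) and Gatm (0.34). Gria1, a subunit of AMPA glutamate receptors, read 48.4, 41.4 and 55.3 in HBC, against 179.6, 190.3 and 239.7 in LBC. Like Anxa10, it lay in the dim range in HBC and was highest on LBC replicate 3. The 6 arrays fall into the HBC and LBC groups, and genes picked by this measure share the direction of Anxa10 by construction.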

How the data were processed

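RNA of 3 HBC and 3 LBC technical replicates was measured on Affymetrix mouse gene arrays. The authors deposited linear intensities, 1 per transcript cluster and array. The submitters' processing notes name Affymetrix Expression Console. How probes were summarised and arrays normalized is not given in the sources used. Of 35556 clusters, 21789 carried 1 gene symbol, and for the 999 genes with several of them the cluster of the highest mean intensity was used. Symbols were checked against RefSeq by gene identifier (21698 matched). Values were tested as log2(intensity + 16) with limma 3.58.1 in R 4.3.3, without a replicate block, over 19938 genes with Benjamini-Hochberg adjustment, and the fit was tested on simulated data. The added 16 makes fold changes of dim genes smaller. Prior degrees of freedom were 24.9 against 4 residual ones.

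The genes, lists, motifs and tests were chosen with earlier results of these data known. All 10 annexins are named, up to 4 called genes of each list, S100a10, S100a11, S100a6, Pdcd6, the neighbours of Anxa10 and called neighbours of others, and the 5 genes nearest in pattern. Other list genes and markers were named after their values were seen. Alternatives covered scaling, added value, intensity filters, the methods' t-test, variance priors, clusters, the replicate block, thresholds and leaving out arrays. The number of arrays limits the precision. Protein features had been planned and were not analysed here.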

Additional observations from a re-analysis of the deposited data

How the results depend on the processing

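The count of annexins called (0 higher, 1 lower in HBC) was the same under every setting tried except a mean intensity above 100 in both groups, which leaves Anxa10 untested (0 lower), and no fold threshold (1 higher, 2 lower). The call in that count is Anxa10, whose values chose the family, so its repeat across settings is no independent support. The adjusted p of other members did depend on scaling. After cyclic loess normalization the limma adjusted p was 0.0057 for Anxa1, 0.0046 for Anxa2 and 0.0019 for Anxa7. It was 0.015 for Anxa8 and 0.022 for Anxa11 there, and all of these stayed short of the fold threshold. After quantile normalization it was under 0.05 for Anxa1, Anxa2, Anxa7 and Anxa8, and 0.079 for Anxa11. Anxa5, close to 0, turned to -0.081 after quantile and -0.033 after cyclic loess normalization, and ran from -0.043 to 0.073 when 1 array was left out. Anxa6 turned to -0.0079 with the mean of its clusters. Of the membrane repair genes, 1 (Grn) was called after cyclic loess normalization, after median centring and without both LBC arrays whose labels conflict, and 0 to 1 when 1 array was left out. The intensity filter left 0 cytosolic phospholipases called. Without a fold threshold, calls numbered 3655 over all genes, 5 for membrane repair, 2 for cytosolic phospholipases, 2 for other phospholipid binders, 1 for the plasminogen system, 1 for formyl peptide receptors and 1 (Anxa9) for annexins outside the 10. At a fold above 2, 280 genes and 1 S100 protein were called, against 732 and 2. The cause of these changes was not tested, beyond the fewer genes tested under the filter and the shifted threshold. Replicate numbers did not pair the arrays. The correlation of deviations between arrays of 1 number was -0.096, -0.24 and -0.50, and no array correlated best with the array of its own number. The highest correlations were 0.49 between HBC replicate 3 and LBC replicate 1 and 0.45 between HBC replicate 2 and LBC replicate 3. The fit with the replicate block kept the counts at 0 higher and 1 lower, and 732 over all genes. Dim signal limits the values of Anxa10 in HBC.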
